A study of Mus musculus with 8 samples.

Results

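Vmn2r8 to Vmn2r17 are 10 genes for type 2 vomeronasal receptors (V2Rs) that lie next to each other on mouse chromosome 5. They were chosen by name, as every listed gene called exactly Vmn2r with a whole number from 8 to 17, and made up 10 of the 27532 genes listed and 10 of the 124 V2R genes. Their level was measured by bulk RNA sequencing of the vomeronasal organ, the chemosensory organ at the base of the nasal septum, in 4 adult mice heterozygous for Tex15 (Tex15HET) and 4 adult Tex15 knockouts (Tex15KO), 1 library an animal. Tex15 is best known for its part in meiosis and in transposon silencing in male germ cells. Heterozygous 1 was a male of 11.4 weeks, heterozygous 2 a female of 14.6 weeks, and heterozygous 3 and 4 were females of 11.9 weeks. Knockout 1 was a female of 11.9 weeks, knockout 2 and 3 were males of 11.9 weeks, and knockout 4 was a male of 12.1 weeks. Every control thus carried 1 Tex15 mutant allele, no wild-type animal was analysed here, and the strain and the design of the allele are not given in the sources used here.

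V2Rs are G protein-coupled receptors with a long extracellular domain that bind peptide and protein pheromones. They are made by the basal sensory neurons of the vomeronasal epithelium, which signal through the G protein subunit Go-alpha. Each basal neuron expresses one or very few of the variable V2Rs, together with a member of the small Vmn2r1 to Vmn2r7 family of broadly expressed co-receptors, so the RNA level of a V2R in the whole organ reflects both how many neurons chose it and how much RNA each of them holds. In these bulk libraries fewer cells of a type and less RNA per cell cannot be told apart.

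The 10 genes span positions 108791843 to 109458459 of chromosome 5 (GRCm38, GENCODE M21). Vmn2r8 to Vmn2r15 lie on the minus strand in numerical order, and Vmn2r16 (109330162 to 109370247) and Vmn2r17 (109419688 to 109458459) on the plus strand at the far end. All 10 are annotated as protein-coding, and their coding sequences are closely alike: over the 45 pairs, aligned coding bases were 86.8% to 96.7% identical (median 90.7%). The 8 minus-strand genes formed the tighter group, with 90.4% to 96.7% identity among their 28 pairs, against 86.8% to 88.9% for the 16 pairs that join one of them to Vmn2r16 or Vmn2r17. Vmn2r16 and Vmn2r17 were 89.2% identical to each other.

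**Figure D1:**
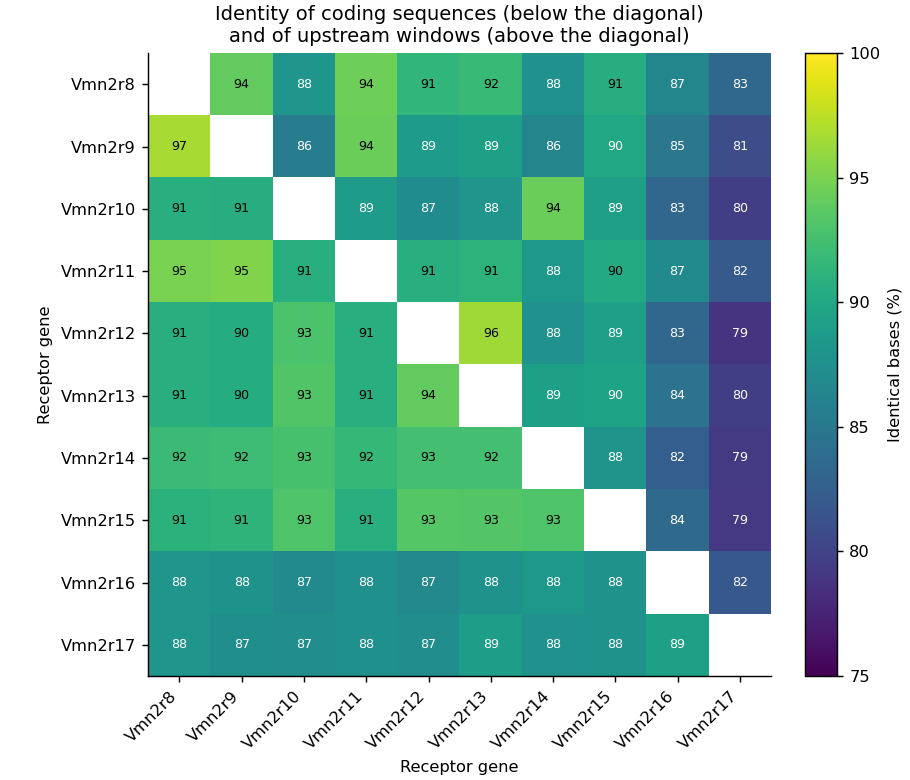
Percent identical bases for each pair of the 10 genes, with coding sequences below the diagonal and the 250 bases before the start codon above it; rows and columns are genes in chromosome order. Coding identity among the 8 minus-strand genes starts at 90.4%, and their pairs with Vmn2r16 and Vmn2r17 stay at or under 88.9%.

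The sequence just upstream of the minus-strand genes is shown because Vmn2r10 and Vmn2r14, whose knockout values lay on opposite sides of the controls, share most of it. Over the 250 bases before the start codon, Vmn2r10 and Vmn2r14 were 94.4% identical, and Vmn2r10 and Vmn2r15 were 89.1% identical. The longest stretch that Vmn2r10 and Vmn2r15 share there, 38 bases, stood in 4 of the 10 genes, which were also the only 4 of 27025. A run of 20 bases, TTTGATCAAAAGTTTTCAGA, stood in this window in all 8 minus-strand genes, in neither plus-strand gene, in 0 of 106 other V2R genes with a window, and in 8 of 27025 genes in all (0.0296%). It ended 91 to 122 bases before the transcript start that GENCODE gives. The windows of Vmn2r16 and Vmn2r17 reach only 31 and 0 bases before their own transcript starts. Counted from the transcript start, they do not cover the matching distance. Counted from the start codon, they aligned with the windows of the minus-strand genes over 223 to 245 bases. Identity in these pairs was 78.8% to 86.9%. The part of the window that lies before the transcript start follows for 4 of the genes, on the minus strand of chromosome 5, with the shared 20 bases in capitals; they were taken from RefSeq for GRCm38.p6.
Vmn2r9 (chr5:108852602-108852760): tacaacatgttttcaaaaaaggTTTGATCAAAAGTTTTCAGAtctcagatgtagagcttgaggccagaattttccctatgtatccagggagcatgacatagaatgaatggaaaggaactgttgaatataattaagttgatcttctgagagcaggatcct
Vmn2r10 (chr5:109006528-109006686): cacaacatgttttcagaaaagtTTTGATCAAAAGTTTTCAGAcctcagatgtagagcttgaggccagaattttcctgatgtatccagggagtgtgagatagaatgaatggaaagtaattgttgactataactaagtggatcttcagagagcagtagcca
Vmn2r14 (chr5:109224709-109224872): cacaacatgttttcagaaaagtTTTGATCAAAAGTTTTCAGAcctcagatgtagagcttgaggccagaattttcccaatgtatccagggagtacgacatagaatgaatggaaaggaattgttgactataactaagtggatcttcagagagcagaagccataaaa
Vmn2r15 (chr5:109297645-109297806): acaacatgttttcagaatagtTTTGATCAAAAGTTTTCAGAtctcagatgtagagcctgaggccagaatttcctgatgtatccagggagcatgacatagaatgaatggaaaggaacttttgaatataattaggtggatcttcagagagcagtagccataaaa

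Shorter parts of the run reached further. Its first 10 bases, TTTGATCAAA, were also present before Vmn2r16, and its last 9, GTTTTCAGA, before all 10 genes, against 0.111% and 0.266% of the 27025 windows and 0 and 4 of those of the 106 other V2Rs. Of 3 motifs looked for on both strands of the 250 bases, the homeodomain core TAATTA stood before Vmn2r9 and Vmn2r15 (5.65% of all windows and 16.0% of those of other V2Rs), GCCNNNGGC, a core bound by TFAP2 factors, before Vmn2r15 alone (15.4% and 7.55%), and the EBF motif before none of the 10 (0.914% and 0 of 106). A match in letters is a description and was not tied to binding by any measurement here.

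Levels are given as TPM, a measure of transcript abundance scaled for gene length and library depth. The reads behind the tables came to 17884115 to 26415661 per library, as worked out from the steps between low values. Tex15 stood at 2.52 ± 0.279 TPM in the heterozygous and 1.09 ± 0.155 TPM in the knockout libraries (SD, n = 4 each), with no overlap and an adjusted p of 0.794 in the limma fit. 2 libraries stood apart in ways that bear on the values that follow. Omp, the marker of mature sensory neurons, was at 66.6 TPM in heterozygous 1 and at 571 to 943 TPM in the other 7, and 2988 genes were listed at 0 in knockout 1, against 1287 to 1808 in the others. Heterozygous 1 is also the only male control and knockout 1 the only female knockout, so with a sex term each of these 2 libraries carried a weight of 0.5 in the genotype difference and each other library 0.167. Heterozygous 1 and 2 bear earlier animal numbers, while the other 6 animals carry later numbers and hold every knockout. Fits to these 6 alone left out the sex term, and both of their controls were female while 3 of their 4 knockouts were male, so 2 choices changed at once there.

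In the heterozygous controls the 10 genes were expressed at graded levels, led by Vmn2r8 and Vmn2r9. Mean levels were 10.65 ± 4.18 TPM for Vmn2r8, 7.16 ± 2.95 for Vmn2r9, 4.67 ± 1.87 for Vmn2r13, 3.59 ± 1.305 for Vmn2r10, 3.17 ± 1.41 for Vmn2r11, 2.46 ± 1.25 for Vmn2r15, 1.98 ± 0.762 for Vmn2r17, 1.72 ± 0.420 for Vmn2r14, 1.66 ± 0.614 for Vmn2r16 and 0.512 ± 0.308 for Vmn2r12 (SD, n = 4). Means of neighbours in this order differed by less than the larger of their SDs except for Vmn2r12, whose highest control value (0.716 TPM) was below the lowest of Vmn2r16 (0.939 TPM). Among all 124 V2R genes Vmn2r8 ranked 26 and Vmn2r12 ranked 109 by mean control level. In the knockouts the order was different. Vmn2r8 stayed first at 11.6 ± 3.56 TPM, followed by Vmn2r15 at 9.03 ± 3.72 and Vmn2r10 at 8.57 ± 2.08, and the last places went to Vmn2r17 at 0.159 ± 0.0417 and Vmn2r16 at 0.150 ± 0.116. The number of genes of the run at 0.5 TPM or more was 10, 9, 10 and 10 in heterozygous 1 to 4 and 6, 7, 8 and 7 in knockout 1 to 4.

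**Figure D2:**
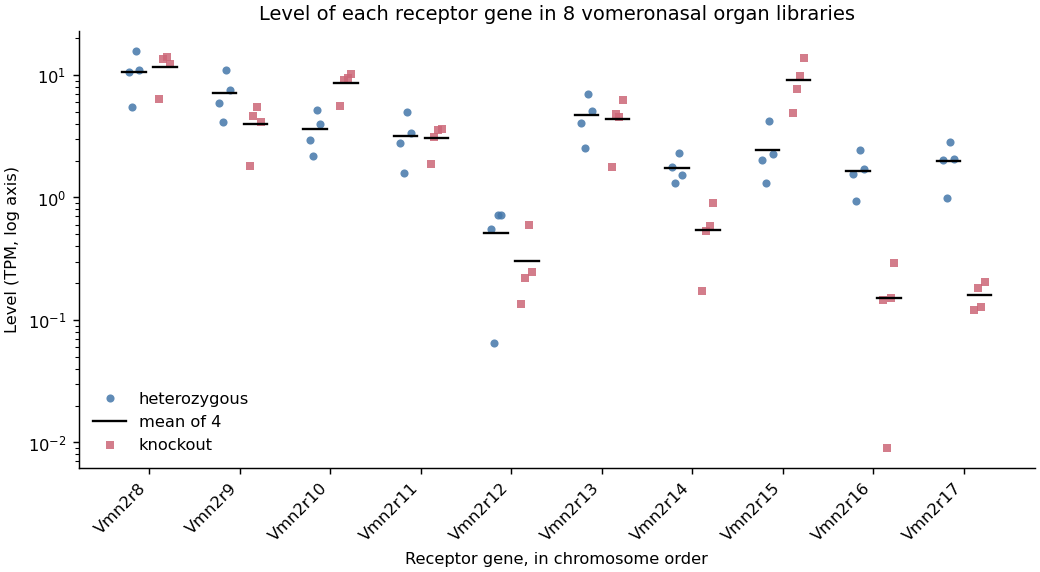
Level of each of the 10 genes in TPM on a log axis, genes in chromosome order; each point is 1 library, and black bars are means of 4. Knockout points of Vmn2r10 and Vmn2r15 lie above all control points, those of Vmn2r14, Vmn2r16 and Vmn2r17 below them, and the other 5 genes overlap.

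The genotype difference was tested for the 20305 genes whose mean reached 0.5 TPM, a filter that 9 of the 10 passed and Vmn2r12 did not. Vmn2r16 and Vmn2r17 passed only through the controls, where they averaged 1.66 and 1.98 TPM, against 0.150 and 0.159 TPM in the knockouts. Their place among the 9 thus rests on the group where they are high. In limma with sex as a term, 1 of the 9, Vmn2r17, was called at an adjusted p under 0.05, against 0.586% of all genes tested (0.212% higher and 0.374% lower) and 42 of 98 other V2R genes (42.9%; 6.12% higher and 36.7% lower). Groups did not overlap for 5 of the 9, 2 higher and 3 lower in the knockout, against 1.4% of all genes (0.473% higher and 0.926% lower) and 69.4% of the other V2Rs (9.18% higher and 60.2% lower). At an unadjusted p under 0.05 there were 6 of the 9, against 3.1% of all genes and 70.4% of the other V2Rs. Log2 fold changes in TPM are given relative to the median gene tested, which lay at 0.19. Their p-values and adjusted p-values test the fold change before this shift. Vmn2r17, given below as a fall of 2.11, was thus tested at -1.91, and Vmn2r10, given as 0.85, at 1.05. The median over the 9 genes was -0.61, with 7 of 9 under 0, and over the other 98 V2Rs -1.55, with 81 under 0.

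The amount of basal neuron RNA may differ between libraries and was not measured. The V2R sum used next is not a measure of it, since 36.7% of the other V2Rs were themselves called lower in TPM. Summed V2R TPM ran from 508 to 1421 in the controls and from 537 to 852 in the knockouts, so each gene was also expressed as a percent of the summed V2R TPM of its library and tested on that scale. Of the 9 genes, 4 were called there: the shares of Vmn2r10 and Vmn2r15 rose and those of Vmn2r16 and Vmn2r17 fell. The same test called 0.921% of all genes (0.488% higher and 0.433% lower) and 55.1% of the other V2Rs (9.18% higher and 45.9% lower). Groups did not overlap in share for 6 of the 9 genes, 2 higher and 4 lower, against 16.0% of all genes (15.1% higher and 0.911% lower) and 79.6% of the other V2Rs (17.3% higher and 62.2% lower). Since every gene is divided by the V2R sum of its library, 18902 of the 20305 genes lay above 0 on this scale, and the median gene stood at a log2 difference of 0.57. Scaled this way the median of the 9 was -0.07 and of the other 98 V2Rs -1.09. Unlike the differences in TPM, those in share are not given relative to the median gene, so the 2 have different zero points. Relative to the median gene, the 2 medians in share were -0.64 and -1.66.

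**Figure D3:**
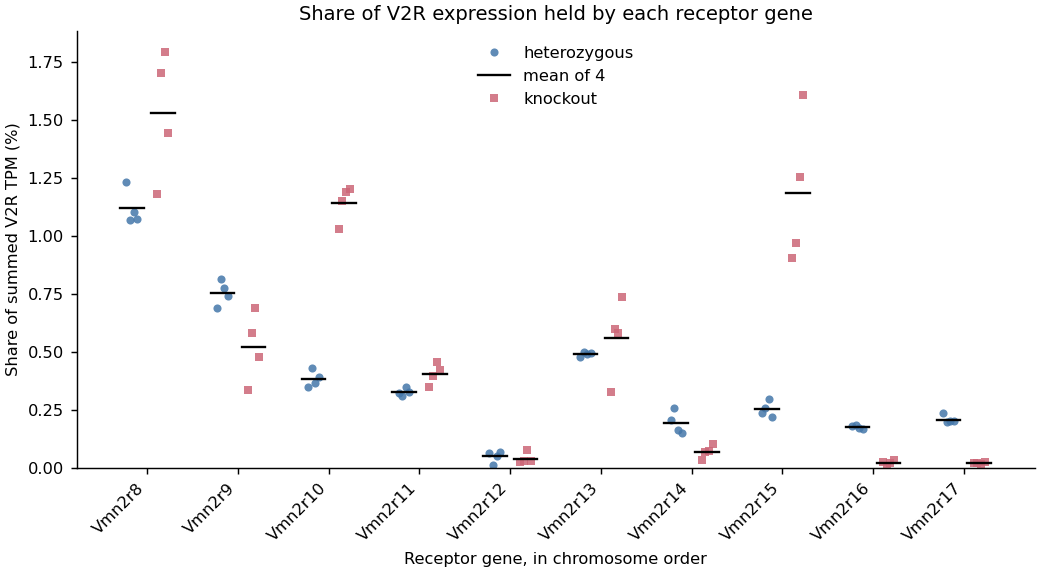
Share of summed V2R TPM held by each of the 10 genes, in percent on a linear axis; each point is 1 library, and black bars are means of 4. Vmn2r10 and Vmn2r15 move from means of 0.385% and 0.254% to 1.14% and 1.18%, next to Vmn2r8.

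Vmn2r10 (108990063 to 109006527, minus strand) was at 2.97, 2.19, 5.20 and 4.02 TPM in heterozygous 1 to 4 and at 5.54, 9.11, 9.37 and 10.24 TPM in knockout 1 to 4. All knockouts stood above all controls, knockout 1 by the least, and the mean was 2.38 times the control mean. As a share of V2R TPM the control libraries held 0.349%, 0.431%, 0.366% and 0.394% and the knockouts 1.03%, 1.15%, 1.19% and 1.20%. These shares lay close together within each genotype, with means of 0.385% ± 0.0357 and 1.14% ± 0.0783 (SD, n = 4), and the gene moved from rank 62 to rank 21 of 124 V2Rs. The log2 difference in share was 1.43 (SE 0.19, limma adjusted p = 0.00638), and the log2 difference in TPM was 0.85 (SE 0.41, adjusted p = 0.946). On leaving out 1 library the call in share was lost without heterozygous 1 (1.26, SE 0.30, adjusted p = 0.222) and without knockout 1 (1.60, SE 0.30, 0.0711). Over all alternatives the adjusted p in share ranged from 0.00119 to 0.222. In the later-numbered animals with no sex term the log2 difference in share was 1.45 (adjusted p = 0.0205).

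Vmn2r15 (109285670 to 109297644, minus strand) was at 2.03, 1.32, 4.23 and 2.25 TPM in heterozygous 1 to 4 and at 4.87, 7.70, 9.87 and 13.7 TPM in knockout 1 to 4. The groups did not overlap, and the knockout mean was 3.68 times the control mean. Its share of V2R TPM was 0.238%, 0.260%, 0.298% and 0.221% in the controls and 0.906%, 0.971%, 1.25% and 1.61% in the knockouts. The lowest knockout share was thus above the highest control share, and the means of 0.254% ± 0.0332 and 1.18% ± 0.320 took the gene from rank 72 to rank 19. The log2 difference in share was 1.87 (SE 0.25, limma adjusted p = 0.00633), and that in TPM was 1.29 (SE 0.45, adjusted p = 0.299). In TPM 4 of 20 alternatives called it higher, among them no sex term (0.0419) and scaling to Gnao1 (0.0172), and 16 did not. In share the call was lost without heterozygous 1 (1.61, SE 0.36, adjusted p = 0.202), within a range over alternatives of 0.000749 to 0.202. The later-numbered animals with no sex term gave 1.94 in share (adjusted p = 0.0107). Of its windows of 150 exonic bases, 98.1% occurred in no other listed gene; 78 windows also occur in Gm14756 on chromosome X, which stood at 1.82 to 5.42 TPM in the controls and 4.73 to 11.7 TPM in the knockouts.

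Vmn2r17, at the plus-strand end of the run, was at 2.03, 0.997, 2.86 and 2.04 TPM in heterozygous 1 to 4 and at 0.121, 0.183, 0.127 and 0.206 TPM in knockout 1 to 4. No knockout came near the lowest control, and the control mean was 12.4 times the knockout mean. About 174 to 404 reads a library stood behind the control values and about 14 to 27 behind the knockout values. It fell by 2.11 on the log2 scale (SE 0.41, limma adjusted p = 0.0274), and 0.374% of all genes tested were called lower. The call in TPM was lost in 6 alternatives. It was lost without heterozygous 1 (-1.84, SE 0.60, adjusted p = 0.338) and without knockout 1 (-2.37, SE 0.61, adjusted p = 0.312). So it was without knockout 2 (-2.17, 0.0593) and without knockout 3 (-2.05, 0.0616). The rest were a filter at a mean of 1 TPM (-2.11, 0.0529) and a replicate block (-2.11, 0.0729). Over all alternatives the adjusted p ranged from 0.00162 to 0.338. The call in TPM held in the later-numbered animals with no sex term (-1.96, adjusted p = 0.00658) and in all 8 with no sex term (0.00647). In share the controls averaged 0.209% ± 0.0194 and the knockouts 0.0215% ± 0.00362, a log2 difference of -1.78 (SE 0.24, adjusted p = 0.00877). That second call was lost without heterozygous 1 (-1.66, adjusted p = 0.21), without knockout 1 (-1.89, 0.0814) and in the later-numbered animals with no sex term (-1.69, 0.0639). Because 0.5 TPM was added before taking logs, these fitted values understate the change of genes this low.

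Vmn2r16, its plus-strand neighbour, was at 1.55, 0.939, 2.43 and 1.70 TPM in heterozygous 1 to 4 and at 0.145, 0.00900, 0.152 and 0.293 TPM in knockout 1 to 4. The groups were far apart, the control mean being 11.05 times the knockout mean, and the value in knockout 2 amounts to about 1 read. Control shares were nearly equal, from 0.167% to 0.185% of V2R TPM, and knockout shares ran from 0.00114% to 0.0345%. The log2 difference in share was -1.55 (SE 0.28, limma adjusted p = 0.0366), and in TPM it was -1.88 (SE 0.40, adjusted p = 0.0731). The call in share was lost in 9 alternatives. Among them were those without heterozygous 1 (-1.44, SE 0.42, adjusted p = 0.247), heterozygous 3 (-1.56, 0.0745) or heterozygous 4 (-1.57, 0.0981). Those without knockout 1 (-1.66, 0.223) or knockout 3 (-1.55, 0.0782) also lost it. So did the later-numbered animals with no sex term (-1.54, adjusted p = 0.165). Over all alternatives the adjusted p in share ranged from 0.00692 to 0.247. In TPM the later-numbered animals with no sex term gave -1.79 (adjusted p = 0.0182), all 8 with no sex term gave -1.85 (0.0141), and the range was 0.00783 to 0.614.

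Vmn2r14 (109211534 to 109224708, minus strand) was at 1.76, 1.32, 2.29 and 1.52 TPM in heterozygous 1 to 4 and at 0.172, 0.531, 0.585 and 0.895 TPM in knockout 1 to 4. Groups did not overlap, and the control mean was 3.16 times the knockout mean, on 116 to 190 reads against 11 to 63. Neither scale gave a call: the log2 difference was -1.52 in TPM (SE 0.40, limma adjusted p = 0.306) and -1.17 in share (SE 0.28, adjusted p = 0.0592), with ranges over alternatives of 0.0126 to 0.817 and 0.0232 to 0.356. Vmn2r14 and Vmn2r16 share 615 windows of 150 exonic bases, so 90.7% and 92.9% of their windows are unique, and reads from the shared part could have been counted for either gene. Its upstream sequence is close to that of Vmn2r10, printed above, whose knockout values lay on the other side of the controls. Vmn2r10 stood at 1.69, 1.66, 2.26 and 2.63 times the TPM of Vmn2r14 in the controls and at 32.2, 17.2, 16.0 and 11.4 times in the knockouts. This ratio within a library does not depend on the scaling; the pair was chosen after its values were seen, so that the groups lie apart is set by the choice.

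Vmn2r9 (108835273 to 108852601, minus strand), the second most abundant in the controls, was at 5.89, 4.14, 11.1 and 7.57 TPM in heterozygous 1 to 4 and at 1.81, 4.62, 5.44 and 4.09 TPM in knockout 1 to 4. The groups overlapped in TPM, and in share they just failed to, with the lowest control at 0.691% and the highest knockout at 0.690%. The log2 difference was -1.20 in TPM (SE 0.44, limma adjusted p = 0.9995) and -0.66 in share (SE 0.24, adjusted p = 0.0766). Without knockout 1 these became -0.76 (adjusted p = 0.835) and -0.23 (0.632), and without heterozygous 1 they became -1.64 (0.652) and -1.08 (0.247), within ranges over alternatives of 0.128 to 1 in TPM and 0.0544 to 0.632 in share. An antisense gene, Gm20629, overlaps it and was at 0.169 to 0.849 TPM in the controls and at 0 to 0.488 TPM in the knockouts.

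Vmn2r8, Vmn2r11 and Vmn2r13, all on the minus strand, overlapped between genotypes on both scales. Vmn2r8 was at 10.52, 5.44, 15.7 and 10.97 TPM in heterozygous 1 to 4 and at 6.36, 13.5, 14.1 and 12.3 TPM in knockout 1 to 4, with the lowest values in heterozygous 2 and knockout 1. Its log2 difference was -0.33 in TPM (SE 0.41, limma adjusted p = 0.9995) and 0.26 in share (SE 0.19, adjusted p = 0.270), from 1.12% ± 0.0772 to 1.53% ± 0.275. Vmn2r11 was at 1.59 to 4.98 TPM in the controls and 1.88 to 3.60 TPM in the knockouts, with a log2 difference of -0.34 in TPM (SE 0.43, adjusted p = 0.9995) and 0.20 in share (SE 0.20, adjusted p = 0.388). Vmn2r13 was at 2.54 to 7.01 TPM in the controls and 1.76 to 6.30 TPM in the knockouts, with a log2 difference of -0.61 in TPM (SE 0.45, adjusted p = 0.9995) and -0.07 in share (SE 0.24, adjusted p = 0.801), the latter turning positive in 4 alternatives. Taken relative to the median gene, as the TPM values are, the differences in share were -0.31 for Vmn2r8, -0.37 for Vmn2r11 and -0.64 for Vmn2r13. Vmn2r8, Vmn2r9 and Vmn2r11 share short stretches, and at least 95.7% of the windows of each were unique.

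Vmn2r12 (109083824 to 109097950, minus strand) was the least abundant in the controls and rested on about 4 to 41 reads a library. It was at 0.550, 0.0653, 0.715 and 0.716 TPM in heterozygous 1 to 4 and at 0.136, 0.219, 0.6002 and 0.246 TPM in knockout 1 to 4, and the groups overlapped. It was tested only with no filter on low values, where its log2 difference was -0.60 (SE 0.32, limma adjusted p = 0.998) in TPM and -0.27 (SE 0.27, adjusted p = 0.462) in share.

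**Figure D4:**
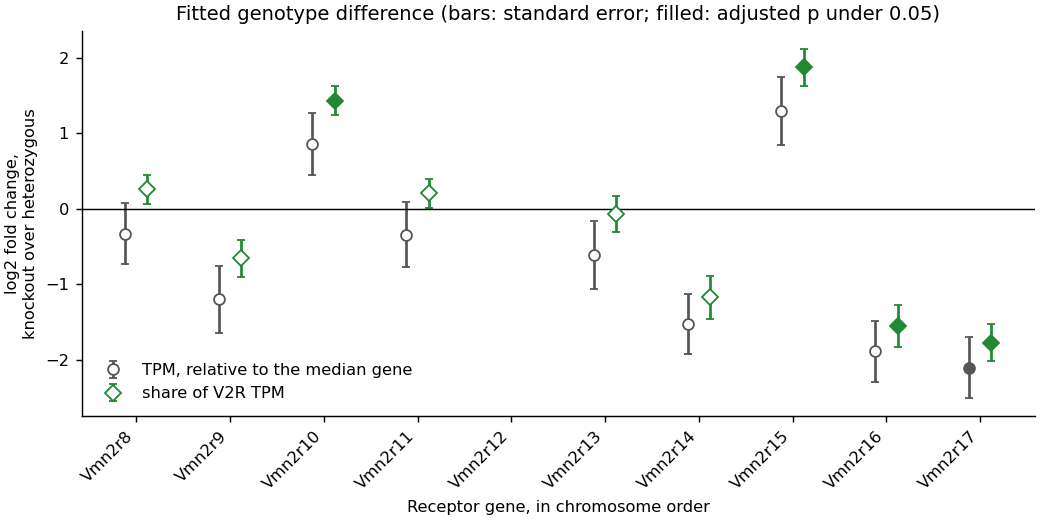
Fitted log2 fold change of knockout over heterozygous for the 9 genes tested, in TPM relative to the median gene (circles) and in share of V2R TPM (diamonds); bars are standard errors and filled symbols an adjusted p under 0.05. The 4 filled diamonds are Vmn2r10 and Vmn2r15 above 0 and Vmn2r16 and Vmn2r17 below it, and the 1 filled circle is Vmn2r17.

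Summed over the 10 genes, the run held 4.004%, 4.04%, 3.97% and 3.85% of V2R TPM in heterozygous 1 to 4 and 4.24%, 5.52%, 6.15% and 6.09% in knockout 1 to 4. The controls averaged 3.97% ± 0.0853 (SD, n = 4), and every knockout was above them, at a mean of 5.50% ± 0.886. Knockout 1 was the nearest to them, and the difference of means was 1.96 points without it and 1.55 without heterozygous 1. Over all libraries the difference of 1.54 points rested on 2 genes: with Vmn2r10 and Vmn2r15 left out, a choice made after their values were seen, the rest held 3.33% ± 0.0784 and 3.17% ± 0.606, and the groups overlapped. In absolute level the summed TPM did not separate the genotypes, at 34.1, 20.53, 56.4 and 39.2 in the controls and 22.8, 43.8, 48.4 and 51.9 in the knockouts. The denominator, the summed TPM of all V2Rs, averaged 950 ± 379 in the controls and 742 ± 140 in the knockouts, and the groups overlapped. Set against the summed TPM of Vmn2r1 to Vmn2r7 in place of all V2Rs, the run stood at 0.225 ± 0.00998 and 0.268 ± 0.0541, with overlap. These sums are descriptions and carry no test.

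The make-up of the run is described with genes grouped after their values were seen. Vmn2r10 and Vmn2r15 together made up 16.1% ± 1.07 of the run in the controls and 42.5% ± 3.98 in the knockouts (SD, n = 4), and Vmn2r14, Vmn2r16 and Vmn2r17 together 14.6% ± 1.33 and 2.01% ± 0.465. Vmn2r9 went from 19.1% ± 1.27 to 9.40% ± 1.74, while Vmn2r8 held 28.3% ± 1.83 and 27.9% ± 3.03. The effective number of genes, the exponential of the Shannon entropy of these percentages, which would be 10 were all equal, was 7.62, 7.60, 7.65 and 7.66 in heterozygous 1 to 4 and 5.82, 5.86, 6.07 and 6.06 in knockout 1 to 4. All knockouts were lower, with a mean difference of -1.68, and the later-numbered animals alone gave -1.70. One factor applied to all genes of a library leaves these percentages as they are.

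**Figure D5:**
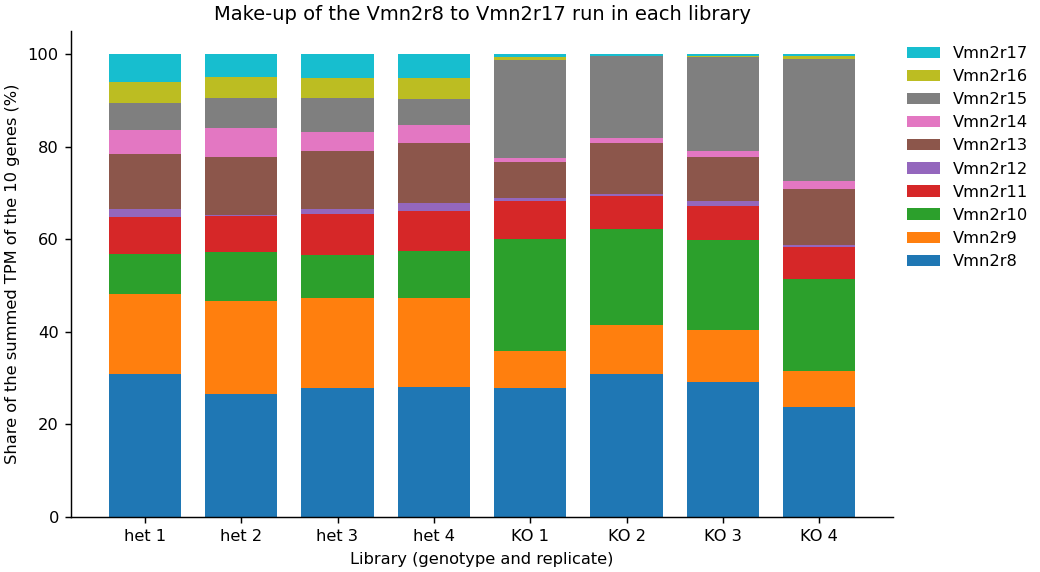
Make-up of the run in each library, in percent of the summed TPM of the 10 genes; each stacked bar is 1 library and each colour 1 gene. Vmn2r10 and Vmn2r15 fill 38.4% to 46.1% of the knockout bars and 14.7% to 17.1% of the control bars.

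The 3 other genes listed within the span of the run, Gm20629, Vmn2r-ps21 and Gm7171, were below the filter and were not tested. Gm7171, a pseudogene between Vmn2r16 and Vmn2r17 on their strand, was at 0.272, 0.310, 0.485 and 0.129 TPM in heterozygous 1 to 4 and at 0, 0.0619, 0 and 0.139 TPM in knockout 1 to 4, and the groups overlapped. Of the 10 nearest tested genes on the lower-coordinate side, from Gm42517 to Fgfrl1, limma called 0, with log2 differences of -0.02 to 0.31 relative to the median gene and 0 at an unadjusted p under 0.05. On the other side, from Crlf2 to Zfp932, it called 0 of 10, with differences of -0.72 to 1.16 and 1 at an unadjusted p under 0.05. Sex at equal genotype gave 0 calls among the 9 genes in the same fit, and 0 at an unadjusted p under 0.05, against 10 calls and 460 at that level among all genes.

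The signalling genes of basal neurons did not pass the test. Of 18 such genes tested, 0 were called in limma and 1 had an unadjusted p under 0.05, with a median log2 difference of -0.21. Gnao1, which encodes Go-alpha, was at 20.8 ± 8.25 TPM in the controls and 19.7 ± 3.22 TPM in the knockouts (SD, n = 4). Of the 7 co-receptors limma called 0, with 0 at an unadjusted p under 0.05; the log2 differences of Vmn2r2, Vmn2r3, Vmn2r4, Vmn2r6 and Vmn2r7 ran from -0.71 to -0.39, and Vmn2r1 stood at 0.26 and Vmn2r5 at 0.56. Groups overlapped for all of them but Vmn2r5, which was at 7.43 ± 3.02 and 14.0 ± 3.47 TPM (adjusted p = 0.9995). Of the 9 H2-Mv genes, class I-like genes expressed in subsets of basal neurons, 1 (H2-M9) was called lower and 4 had an unadjusted p under 0.05, with a median of -0.90. Limma called 0 of 6 genes of apical neurons (median 0.06) and 0 of 9 genes of immature neurons and progenitors (median 0.09), with 0 at an unadjusted p under 0.05 in either list.

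Markers of other cells were present in every library, and their part in the results was not tested. Summed markers of main olfactory neurons ran from 35.0 to 78.7 TPM in the controls and from 32.0 to 41.8 in the knockouts (5 genes), and those of macrophages from 162 to 629 and from 277 to 432 (6 genes). Erythrocyte genes summed to 3900 to 20930 and 4954 to 14334 TPM (5 genes), endothelial genes to 7.10 to 30.4 and 18.3 to 30.5 (4 genes), ciliated cell genes to 172 to 278 and 132 to 373 (3 genes), and cartilage genes to 0.773 to 4.33 and 1.83 to 3.46 (3 genes). Each range overlapped between genotypes, none of these genes was at 0 in any library, and limma called 0 of those tested, with 0 at an unadjusted p under 0.05.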

How the data were processed

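Polyadenylated RNA of whole vomeronasal organs was sequenced as stranded paired reads, from extracts with an RNA integrity number above 7, per the labels' protocols. The authors deposited 1 table of TPM values, 1 column a library, not pooled. Per the submitters' processing notes, Trim Galore 0.6.5, cutadapt 5.1, STAR 2.7.11b and deepTools 3.5.5 were used with mm10/GRCm38; the program that counted genes, its strand setting and its handling of reads shared by near-identical receptors are not given in the sources used here.

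Genes whose mean reached 0.5 TPM were tested with limma 3.58.1 (trend, in R 4.3.3) on log2(TPM + 0.5) with genotype and sex, and p-values were adjusted by Benjamini-Hochberg over all 20305; a second fit first scaled each library to equal summed V2R TPM. The p-values rest on 4 animals a group, with the uneven library weights given above. The variance of each gene was moderated towards the trend over all genes. In the TPM fit the prior degrees of freedom were 14.8, against 5 residual ones. Whole reads were recovered from the steps of low TPM values with GENCODE M21 lengths: 97.5% to 98.1% of low values came within 0.02 of a whole read. All 8 values were whole for only 2 of the 10 genes, so the reads printed for the other 8 are approximate; limma-voom on these reads was an added alternative. Sequences were aligned with MAFFT 7.526. Named genes were the 10 members, Tex15, the co-receptors, listed transduction genes and called genes of fixed lists (basal, apical, H2-Mv, immature and cell type markers); Trpc2 was not matched by symbol. The members and lists were chosen with earlier results of these data known. The fits were tested on simulated data. Alternatives were another pseudocount and filter, other scalings and covariates, a replicate block, the later-numbered animals with no sex term and leaving out each library.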

Additional observations from a re-analysis of the deposited data

Results flagged for a closer look

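Of 46 groups of 4 libraries looked at for a value far from the others, 2 had one; chance gives about 1 in 20. The share of Vmn2r12 was 0.0762% of V2R TPM in knockout 3, against 0.0252% to 0.0289% in the other knockouts, on about 29 reads. The share of Vmn2r17 was 0.238% in heterozygous 1, against 0.196% to 0.201% in the other controls; all 4 were above every knockout.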

How the results depend on the processing

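In TPM, where 1 of the 9 genes was called, 0 were called with a filter at a mean of 1 TPM, 2 with animal series in place of sex, 2 in the later-numbered animals with no sex term, 2 with robust limma, 2 with limma-voom on recovered reads (chosen after seeing the data), 3 without the sex term, 4 with median-ratio scaling and 4 with scaling to Gnao1; leaving out 1 library gave 0 to 2. In share, where 4 were called, the later-numbered animals with no sex term gave 2 and leaving out 1 library gave 0 (heterozygous 1) to 5 (knockout 2, where 8402 of all genes were called against 187 with all libraries). Without knockout 1, only Vmn2r15 stayed called in share. Scaling to the V2Rs other than Vmn2r1 to Vmn2r7 gave 5, in a fit that called 4928 of all genes. With the replicate number as a block, 0 genes were called in TPM (Vmn2r17, limma adjusted p = 0.0729) and 2 in share (Vmn2r10 at 0.0614 and Vmn2r16 at 0.0941 were not); same-numbered libraries of the 2 genotypes had correlations of deviations of -0.06 to 0.10 and the labels name nothing they share, so the pairing was not used. The difference in the share of the run, 1.54 points, was 4.06 with Vmn2r20 to Vmn2r56, Vmn2r88 and Vmn2r89 left out of the denominator and -0.153 without Vmn2r10 and Vmn2r15, each of which changes the sum by construction. Signs turned in share for 3 genes that were never called: Vmn2r8 (-0.0288) and Vmn2r11 (-0.0519) with limma-voom, and Vmn2r13 without the sex term (0.13), with animal series (0.12), in the later-numbered animals with no sex term (0.12) and on leaving out 1 library (-0.52 to 0.38, the highest without knockout 1); the cause was not tested. Among values of single genes, 311 kept their direction and side of the threshold, 22 lost the call, 19 gained it and 6 changed sign. Few reads stand behind Vmn2r12, and behind Vmn2r16 and Vmn2r17 in the knockouts.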
